A study of Mus musculus with 16 samples.

Results

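The 10 genes followed here encode transcription factors and cofactors known as oncogenes of T-cell acute lymphoblastic leukaemia (T-ALL): Tal1, Lyl1, Lmo1, Lmo2, Tlx1, Tlx3, Hhex, Myc, Mycn and Spi1. They were chosen by name, all 10 matched a row by Ensembl identifier, and they are 10 of the 55414 rows of the count table. The 16 libraries were total RNA from mouse leukaemia cells that, per the labels, carried the Kmt2a-AFF1 fusion, overexpressed the microRNA miR-128a and modelled infant pro-B acute lymphoblastic leukaemia. All groups shared this genotype, so no library without the fusion or without the microRNA was compared. Leukaemia-propagating cells (LPC) of either type had been sorted from the central nervous system (CNS) or from bone marrow (BM). LSK cells (labelled LSK_IL7R) lacked lineage markers and bore Sca1, cKit and the IL7 receptor, and LK cells (LK/CLP in the titles) lacked lineage markers and Sca1 and bore cKit. Each of the 4 groups, named by niche and LPC type, held 4 libraries. The labels used here give no strain, age, host or number of animals, nor how the fusion and the microRNA were expressed. P-values therefore measure the spread between these libraries, which may be in part technical.

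TAL1 and LYL1 are related basic helix-loop-helix factors that bind DNA with an E protein (TCF3, TCF12 or TCF4). The LIM-only proteins LMO1 and LMO2 do not bind DNA themselves. They join such a pair to LDB1 and to GATA and RUNX factors in one complex. TLX1 and TLX3 are homeobox factors switched on by rearrangement in T-ALL, HHEX is a homeobox factor that works downstream of LMO2 in thymocytes, MYC and MYCN drive growth with MAX, and SPI1 (PU.1) is an ETS factor of myeloid and early lymphoid cells that is switched off as T cells commit.

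The microRNA overexpressed in all 16 libraries is shown with the matches to its seed that the 10 genes hold. Its current name is miR-128-3p, and the mature strand from RefSeq (GRCm38.p6; Mir128-1 on chromosome 1 and Mir128-2 on chromosome 9 give the same strand) has its seed, bases 2 to 8, in capitals:

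mmu-miR-128-3p: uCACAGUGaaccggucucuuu

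The DNA letters that pair with this seed, CACTGTG, were searched on the sense strand of the longest annotated 3′ UTR of each gene (GENCODE M21). They occurred once in Lmo2 (from base 278 of 784) and once in Tlx1 (from base 566 of 827), and not in the UTRs of the other 8 genes. Of all 20998 genes with such a UTR, 19% held the same letters. The sites are printed with the match in capitals:

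Lmo2: ccagcatgCACTGTGccatcctg
Tlx1: catagtcaCACTGTGacacacac

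A match is a description of the sequence. With no library free of the microRNA, its bearing on either gene was not tested.

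Of the 10 genes, Myc and Lyl1 were expressed well above background and the other 8 lay at or close to it. Background was read, as counts per kb of exon, from 1462 genes of olfactory or vomeronasal receptors. Most tissues do not express these. For each gene that density gave a predicted background count. Myc (ENSMUSG00000022346, chromosome 15) had 62562 counts in the 16 libraries, 929 times its predicted background, and a mean level of 60.0 CPM (counts scaled to a library of 1e6) per kb, above 98.7% of 21876 protein-coding genes. Lyl1 (ENSMUSG00000034041, chromosome 8) had 5693 counts, 128 times its prediction, and 8.25 CPM per kb, above 88.0% of protein-coding genes. Spi1 (ENSMUSG00000002111, chromosome 2) followed at 0.195 CPM per kb and 2.97 times background, above 97.9% of the silent genes themselves.

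**Figure D1:**
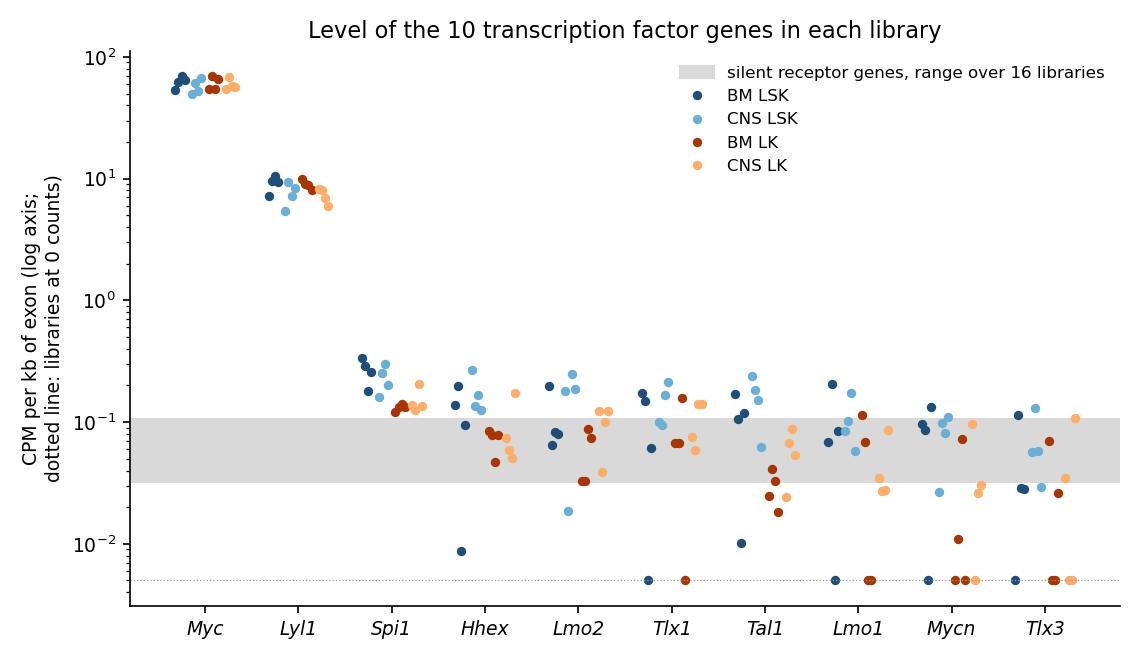
Level of each gene in each library as CPM per kb of exon (log axis), coloured by group; the grey band spans the silent receptor genes' pooled level over the 16 libraries and the dotted line holds libraries at 0 counts. Myc and Lyl1 stand far above the band in all 16 libraries and Spi1 slightly above it in all 16. The other genes lie within it or near it.

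The remaining 7 genes could not be told from background by level. Hhex (ENSMUSG00000024986, chromosome 19) had 218 counts in all (1.74 times the prediction), Tal1 (ENSMUSG00000028717, chromosome 4) 143 (1.32 times), Tlx1 84 (1.58 times), Lmo2 83 (1.55 times), Mycn 65 (0.796 times), Lmo1 44 (1.14 times) and Tlx3 27 (0.711 times). Of the silent genes, 93.4% had fewer counts per kb than Hhex, 91.3% fewer than Tlx1, 90.6% fewer than Lmo2 and 85.7% fewer than Tal1. The shares were 79.5% for Lmo1, 54.1% for Mycn and 44.8% for Tlx3. Per length, the order was therefore Myc, Lyl1 and Spi1. The others lay lower, within the range of the silent genes, and no test compared them with each other. Counts of 0 occurred in 5 libraries for Tlx3, 4 for Mycn, 3 for Lmo1 and 2 for Tlx1. A count of 0 allows a level of up to 0.10 to 0.16 CPM, depending on the library. These limits cover counting error alone.

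The libraries held 19.2e6 to 29.2e6 counts. Silent genes took 332 ± 128 CPM in BM LSK, 497 ± 66.3 in CNS LSK, 241 ± 39.2 in BM LK and 344 ± 130 in CNS LK (SD, n = 4 each), from 171 in BM LSK 3 to 572. The BM and CNS library of one LPC type and number share the stem of their description, and in 7 of 8 stems the CNS library had more of this background. It moved with the groups, and its part in the results was not tested beyond its use as a covariate, whose values stand beside the results on low genes.

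Lineage markers were set against the same background. Among the pro-B cell markers, Pax5 (1.02 times background), Ebf1 (1.07), Igll1 (1.08) and Vpreb1 (2.39) lay near it, and Cd79a reached 10.9 times. The list's summed level of 217 to 343 CPM came almost entirely from Rag1, at 259 ± 17.3 to 291 ± 32.6 CPM in the 4 groups (SD, n = 4). The T and NK cell markers summed to 390 to 495 CPM. Trbc2 (2580 times background), Lck (1160), Trbc1 (987) and Gzma (730) were abundant. Cd4 (32.4 times), Cd8a (25.3) and Cd3d (5.76) lay lower but above background. Nkg7 (2.83 times), Cd3g (2.73), Klrb1c (1.21), Ncr1 (1.1) and Cd3e (1.07) lay near it. Rag2 (2.56 times), Blnk (2.73) and Cd79b (3.27) completed the pro-B list, in which Rag1 (647) and Cd79a thus stood furthest from background. Rag1 is also expressed in developing T cells. Genes of these marker lists named here were chosen after their values were seen. Summed levels of the other lists were 2.74 to 5.21 CPM for erythroid, 1.42 to 6.86 for megakaryocyte, 4.98 to 10.7 for myeloid and 4.54 to 7.66 for microglial markers. They were 66.6 to 108 for endothelial markers, mostly Pecam1 (group means of 74.7 to 91.2 CPM), with Cdh5, Kdr, Tek and Tie1 at 1.17 to 1.83 times background. The neural, glial and meningeal markers summed to 51.2 to 73.3 CPM, mostly Mbp (33.4 to 38.5) and Tubb3 (12.2 to 16.3), with Gfap (1.44 times background), Mog (1.04) and Snap25 (0.689) near it.

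**Figure D2:**
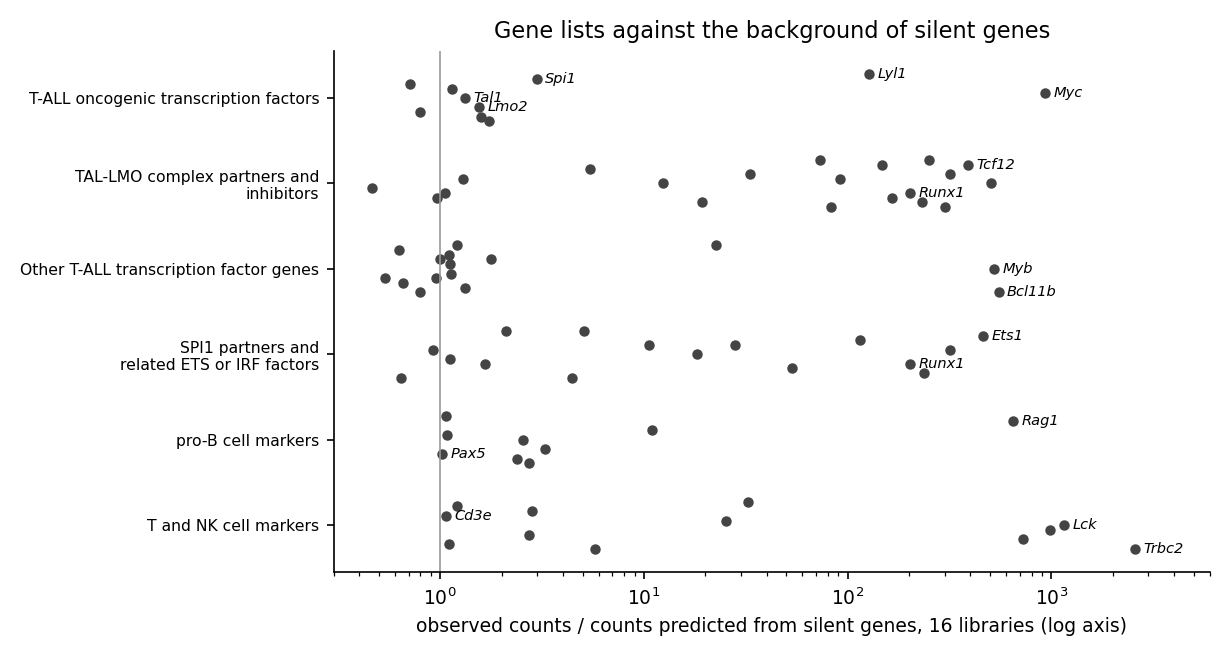
Counts of each gene of 6 lists over the 16 libraries, divided by the counts predicted from the silent genes (log axis); each point is 1 gene and the vertical line marks background. Myc and Lyl1, most partners of the TAL-LMO complex, and the T-lineage genes Bcl11b, Lck and Trbc2 lie far to the right, whereas Tal1, Lmo2, Pax5 and Cd3e lie near the line.

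Of the 10 genes Lyl1 alone passed a test between niches, by a small amount. It did so in the fit with stems as a block and not in the fit without one. It is shown with its start site region because it is the expressed member of the Tal1 and Lyl1 pair. In each stem its level was lower in the CNS library. In LSK cells it went from 13.0 to 9.85 CPM in number 1, from 17.2 to 16.9 in number 2, from 18.9 to 13.0 in number 3 and from 16.8 to 15.0 in number 4, BM first. In LK cells it went from 17.9 to 14.7, from 16.3 to 14.5, from 16 to 12.5 and from 14.5 to 10.8 CPM. The groups overlapped in both LPC types: the highest CNS LSK library (16.9) lay above 2 of the BM LSK libraries, and the highest CNS LK library (14.7) above 1 of the BM LK libraries.

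The group means of Lyl1 were 16.5 ± 2.49 CPM in BM LSK, 13.7 ± 3.01 in CNS LSK, 16.2 ± 1.40 in BM LK and 13.1 ± 1.86 in CNS LK (SD, n = 4). Over both LPC types the log2 difference, CNS minus BM, was −0.29 ± 0.10 (SE). Without a block on stems it did not pass edgeR's quasi-likelihood test (adjusted p 0.418, unadjusted p 0.0125; 0.0% of 18878 rows passed), and DESeq2 gave −0.31 with an adjusted p of 0.228. With the block the difference was −0.29 ± 0.065 and the adjusted p 0.0452 in edgeR's test, in which 126 rows, or 0.667%, passed. All 8 stems had less Lyl1 in the CNS (log2 −0.53 to −0.025 per stem). An exact two-sided test of the mean stem difference, in which the signs of the differences were flipped, gave p 0.00781. This is the smallest that 256 arrangements allow. Of the tested rows, 1.45% were lower in the CNS in all 8 stems and 1.49% higher in all 8, so Lyl1 was 1 of 273 rows lower in every stem. The lower level can stand for fewer cells with the RNA or less RNA per cell, which bulk libraries cannot tell apart.

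**Figure D3:**
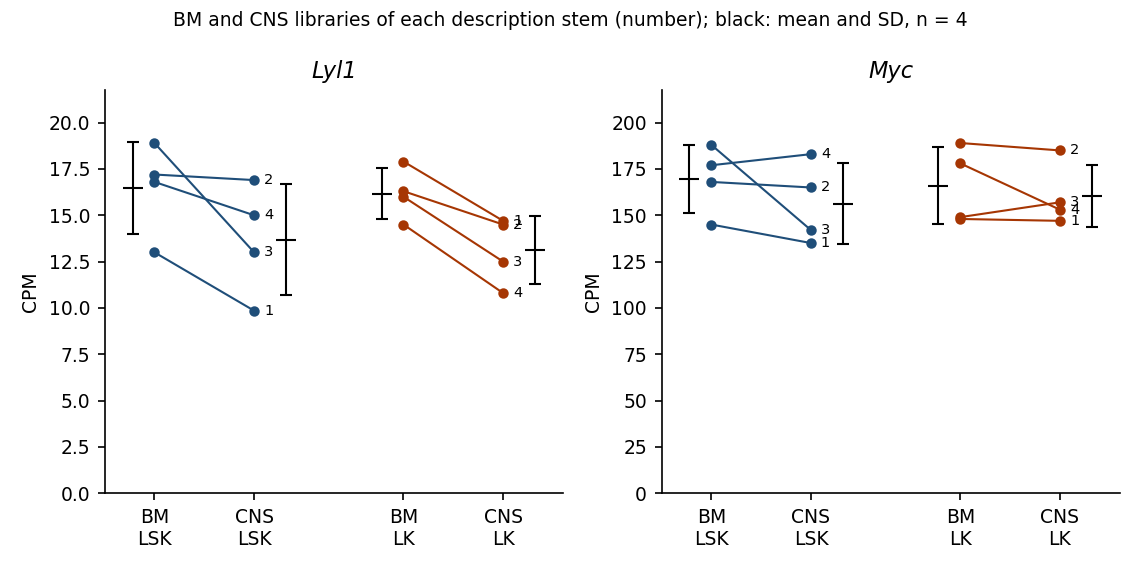
Lyl1 and Myc in CPM in the BM and CNS library of each stem, joined by a line and marked with the number, with the group mean and SD (n = 4) in black. Lyl1 falls along all 8 lines and Myc along 6, and the lines of LSK 2 are nearly flat in Lyl1.

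The call on Lyl1 moved with the stems and rows in the fit. In the fit with the block it was kept without stem LSK 2 (edgeR adjusted p 0.0334) and lost without any other stem, with adjusted p from 0.0511 (without LK 2) to 0.177 (without LSK 3) and log2 differences of −0.31 to −0.25. In the fit with the block over every row with a count it passed by more, at −0.35 ± 0.073 (edgeR adjusted p 0.000707; 454 rows, or 0.851%, passed). The median log2 difference of all rows was 0.16 in that fit, against −0.0015 with the block at a mean of 10 counts. Over every row without the block the median was 0.15 and Lyl1 differed by −0.34 ± 0.094 (edgeR adjusted p 0.112). There Lyl1 passed when BM LSK 1, CNS LSK 2, CNS LSK 4 or CNS LK 2 was left out (edgeR adjusted p 0.0141 to 0.0434). With the silent-gene background as a covariate beside the block, the difference was −0.18 ± 0.086 and the edgeR adjusted p 0.904. The predicted background itself was 8.08 to 14.9 counts of Lyl1 per group, against 1230 to 1651 counts observed. The Lyl1 difference was −0.27 ± 0.15 within LSK cells (edgeR adjusted p 0.856; 0.370 with the block, where 0.138% of rows passed) and −0.31 ± 0.15 within LK cells (1.00; 0.461 with the block, where 0.0636% passed). The difference between those values was 0.039 ± 0.21 (edgeR interaction test, adjusted p 1.00). Between LPC types Lyl1 differed by 0.048 ± 0.10, LSK minus LK (edgeR adjusted p 0.896; approximate 95% interval −0.16 to 0.25). In the annotation, Lyl1 shares 4 exon bases with Nfix on the opposite strand, and use of strand in the counting is not given in the sources used here. Nfix had 55.3 ± 11.8 to 60.9 ± 12.8 CPM in the groups (SD, n = 4) and a niche difference of −0.12 (edgeR adjusted p 0.820).

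The 300 bases around the RefSeq start of Lyl1 (chr8:84701207-84701506, plus strand, GRCm38.p6, from 250 bases before the start) are set beside those of its relative Tal1 on chromosome 4 (chr4:115056176-115056475, plus strand, the more upstream of the 2 listed starts), which lay at background. RefSeq regions were given for 7 of the 10 genes. Both strands were searched for 3 motifs, and matches are in capitals. The MYC-type E-box was spelled CACGTG. The letters taken for GATA factors were AGATAA. For ETS factors such as SPI1 the motif searched was GAGGAAG.

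Lyl1: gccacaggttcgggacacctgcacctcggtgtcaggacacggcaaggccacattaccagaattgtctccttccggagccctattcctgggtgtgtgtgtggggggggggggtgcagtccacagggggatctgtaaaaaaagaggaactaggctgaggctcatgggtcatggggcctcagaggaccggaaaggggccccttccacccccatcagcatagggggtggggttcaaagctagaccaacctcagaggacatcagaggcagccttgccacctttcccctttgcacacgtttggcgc
Tal1: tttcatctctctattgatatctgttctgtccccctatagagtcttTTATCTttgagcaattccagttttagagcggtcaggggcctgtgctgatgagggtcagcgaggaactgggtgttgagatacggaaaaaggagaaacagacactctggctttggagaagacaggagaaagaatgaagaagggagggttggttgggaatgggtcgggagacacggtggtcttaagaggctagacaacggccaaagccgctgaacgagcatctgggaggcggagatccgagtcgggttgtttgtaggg

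The Lyl1 region held none of these letters, and the Tal1 region held 1 GATA motif on the minus strand. Of 32851 such regions in the table, 7.15% held CACGTG, 11.2% AGATAA and 13.6% GAGGAAG. In the other regions of the 7 genes none of the 3 motifs occurred.

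Myc was the most abundant of the 10 genes and did not pass in any of the 7 comparisons. Its levels were 145, 168, 188 and 177 CPM in BM LSK 1 to 4 and 135, 165, 142 and 183 in CNS LSK. They were 148, 189, 149 and 178 CPM in BM LK and 147, 185, 157 and 153 in CNS LK. All 4 groups overlapped. Group means ran from 156 ± 21.8 in CNS LSK to 170 ± 18.2 in BM LSK, with 166 ± 21.0 in BM LK and 160 ± 16.6 in CNS LK (SD, n = 4).

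The niche difference of Myc over both LPC types was −0.083 ± 0.077 (log2, SE; edgeR adjusted p 0.812; approximate 95% interval −0.23 to 0.067). In 6 of 8 stems the CNS library had less Myc. The mean difference per stem was −0.084 (exact two-sided sign-flip test of this mean, p 0.195). Between LPC types the difference was −0.003 ± 0.077 (edgeR adjusted p 0.992; interval −0.15 to 0.15). The difference of Myc between niches was −0.12 within LSK and −0.048 within LK, and the interaction was −0.07 ± 0.15 (edgeR adjusted p 1.00).

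The MYC network list held genes whose proteins pair with MAX or control MYC, together with Mlx and Mlxip. Of its 15 genes 14 were tested, and 1, Aurka, passed between LPC types, where 45 of 18878 rows passed (0.238%; 43 higher and 2 lower in LSK). Aurka encodes the mitotic kinase Aurora A, which also binds and stabilises MYCN protein. It rose in LSK cells by 0.50 ± 0.10 (edgeR adjusted p 0.0374), from 21.4 ± 3.04 to 30.8 ± 4.72 CPM in BM and from 20.8 ± 2.13 to 29.2 ± 6.0 in the CNS (LK to LSK; SD, n = 4). The call was lost without any 1 of 9 libraries (BM LSK 1, CNS LSK 1, CNS LSK 3, BM LK 1, BM LK 2, BM LK 4, CNS LK 1, CNS LK 2 or CNS LK 3; edgeR adjusted p 0.0584 to 0.105) and with counts summed per stem (0.171). With the background covariate Aurka differed by 0.54 (edgeR adjusted p 0.140). Huwe1, a ubiquitin ligase that acts on MYC proteins, had the highest count of the list, at 558 ± 37.4 to 627 ± 21.6 CPM, and differed by −0.10 between LPC types (edgeR adjusted p 0.400). Mga (a MAX partner), Mxd4 (a MAX-binding repressor) and Mlxip had 120 to 131, 59.1 to 79.3 and 55.1 to 61.6 CPM as group means. Max itself, named after its values were seen, had 38.4 ± 1.60 to 39.7 ± 1.20 CPM. Medians over the 14 genes were −0.041 between niches and −0.0066 between LPC types, against −4.3e-07 and −0.011 over all rows.

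All 28 MYC target genes of growth and ribosome making were tested, and 0 passed in any of the 7 comparisons (edgeR; 0 at an unadjusted p under 0.05 between niches and 1 between LPC types). Over all 18878 rows, 9.15% were under that unadjusted p between niches and 12.1% between LPC types. Their median log2 difference was −0.03 between niches, with 8 above 0 and 20 below, and 0.03 between LPC types, with 20 above and 8 below. Ncl (nucleolin) had 1440 ± 154 to 1540 ± 129 CPM and Npm1 (nucleophosmin) 569 ± 9.45 to 614 ± 44.7 in the groups (SD, n = 4). Ldha, of glycolysis, had means of 329 to 339 CPM and Cad, of pyrimidine synthesis, 273 to 310.

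Of the 20 partners and inhibitors of the TAL-LMO complex, 16 were tested and 0 passed in any comparison without the block (edgeR; 1 at an unadjusted p under 0.05 between niches and 0 between LPC types). The E-protein genes that supply a partner for LYL1 were abundant: Tcf12 had 386 ± 11.4 to 399 ± 26.8 CPM and Tcf3 130 ± 23.9 to 140 ± 13.7 in the groups. Runx1 had 154 ± 10.5 to 169 ± 13.8 CPM and Ldb1, the dimerizing bridge of the complex, 87.7 ± 7.76 to 93.3 ± 6.13. Per length, Tcf3 (33.1 CPM per kb), Tcf12 (25.4), Ldb1 (19.6) and Runx1 (13.2) all lay above Lyl1 (8.25), and Lmo2 (0.105) and Tal1 (0.0869) far below.

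Among the GATA factors, Gata1 (1.29 times background) and Gata2 (0.964 times) lay at background and Gata3, the T-lineage member, at 148 times. Gata3 had 34.4 ± 3.27 CPM in BM LSK, 43.1 ± 1.99 in CNS LSK, 35.6 ± 4.27 in BM LK and 40.0 ± 3.09 in CNS LK (SD, n = 4). It passed between niches with the block alone, higher in the CNS by 0.25 ± 0.044 (edgeR adjusted p 0.00771; 0.303 without the block), and within LSK cells by 0.33 ± 0.062 (0.0407). The call over both LPC types was kept without each of the 8 stems in turn (edgeR adjusted p 0.00665 to 0.0396) and lost with the background covariate beside the block (0.21, adjusted p 0.465). Gata3, Gata1 and Gata2 were singled out after their values were seen. The median over the 16 tested genes was 0.0051 between niches.

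Spi1 was low, and had the smallest unadjusted p of the 4 tested members between LPC types. In BM LSK it had 0.90, 0.78, 0.49 and 0.69 CPM (11 to 22 counts), and in BM LK 0.32, 0.36, 0.38 and 0.36 (8 to 10 counts). These groups did not overlap. In CNS LSK it had 0.43, 0.68, 0.81 and 0.54 CPM and in CNS LK 0.37, 0.34, 0.56 and 0.37, which overlapped. Over both niches the log2 difference, LSK minus LK, was 0.79 ± 0.24 (SE; edgeR adjusted p 0.188, unadjusted p 0.00332). That fit took the BM and CNS library of each stem as independent. With counts summed per stem the difference was 0.78 ± 0.24 (edgeR adjusted p 0.297, unadjusted p 0.00693).

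Spi1 thus did not pass, either over both niches or within BM (1.00 ± 0.33, edgeR adjusted p 0.704) or the CNS (0.58 ± 0.33, 0.790). Groups of 4 that did not overlap in BM, LSK above LK, occurred in 1.49% of rows. With the background covariate the Spi1 difference was 0.61 ± 0.26 (edgeR adjusted p 0.732). Its observed counts over the predicted background were 4.30 in BM LSK, 2.55 in CNS LSK, 2.98 in BM LK and 2.29 in CNS LK. Between niches it differed by −0.0034 ± 0.29 (edgeR adjusted p 1.00).

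Of 16 SPI1 partners and related ETS or IRF factors, 12 were tested and 0 passed in any comparison (edgeR; 2 at an unadjusted p under 0.05 between niches and 0 between LPC types). The ETS genes of lymphoid cells were abundant. Ets1 had 250 ± 13.9 to 260 ± 6.83 CPM, Elf1 136 ± 5.49 to 142 ± 4.23 and Etv6 89.8 ± 4.66 to 93.1 ± 3.28 (SD, n = 4). The list's median difference was −0.023 between niches and 0.062 between LPC types.

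Tal1 had too few counts for the test at a mean of 10 counts and was tested, with the other low genes, in a fit of all 53366 rows with a count. The median log2 difference of all rows in that fit was 0.15 between niches and 0.14 between LPC types. In BM LSK Tal1 had 14, 13, 1 and 12 counts in numbers 1 to 4, and in CNS LSK 24, 20, 15 and 6. In BM LK it had 3, 5, 3 and 2 counts and in CNS LK 2, 7, 9 and 7. The LSK libraries were mostly higher, and the groups overlapped through BM LSK 3 and CNS LSK 4. Group means were 0.442 ± 0.292, 0.697 ± 0.322, 0.127 ± 0.0431 and 0.256 ± 0.118 CPM in the order BM LSK, CNS LSK, BM LK and CNS LK (SD, n = 4).

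The fits of Tal1 between LPC types also took the BM and CNS library of each stem as independent. The log2 difference of Tal1 between LPC types was 1.51 ± 0.43 (SE; edgeR adjusted p 0.0782; 290 rows, or 0.543%, passed). It passed without BM LSK 3 (1.70, edgeR adjusted p 0.0105) and without CNS LSK 4 (1.65, 0.03), BM LSK 3 being the library with the lowest silent-gene background. With counts summed per stem the difference did not pass, whereas 94 of 53366 rows did (edgeR). With the background covariate it was 0.94 ± 0.50 (edgeR adjusted p 0.941). Observed Tal1 counts over the predicted background were 1.60 and 1.79 in BM and CNS LSK and 0.662 and 0.905 in BM and CNS LK. Between niches Tal1 differed by 0.78 ± 0.43 (edgeR adjusted p 0.467; 85 rows, or 0.159%, passed), and by 0.26 ± 0.48 with the covariate (adjusted p 1.00).

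**Figure D4:**
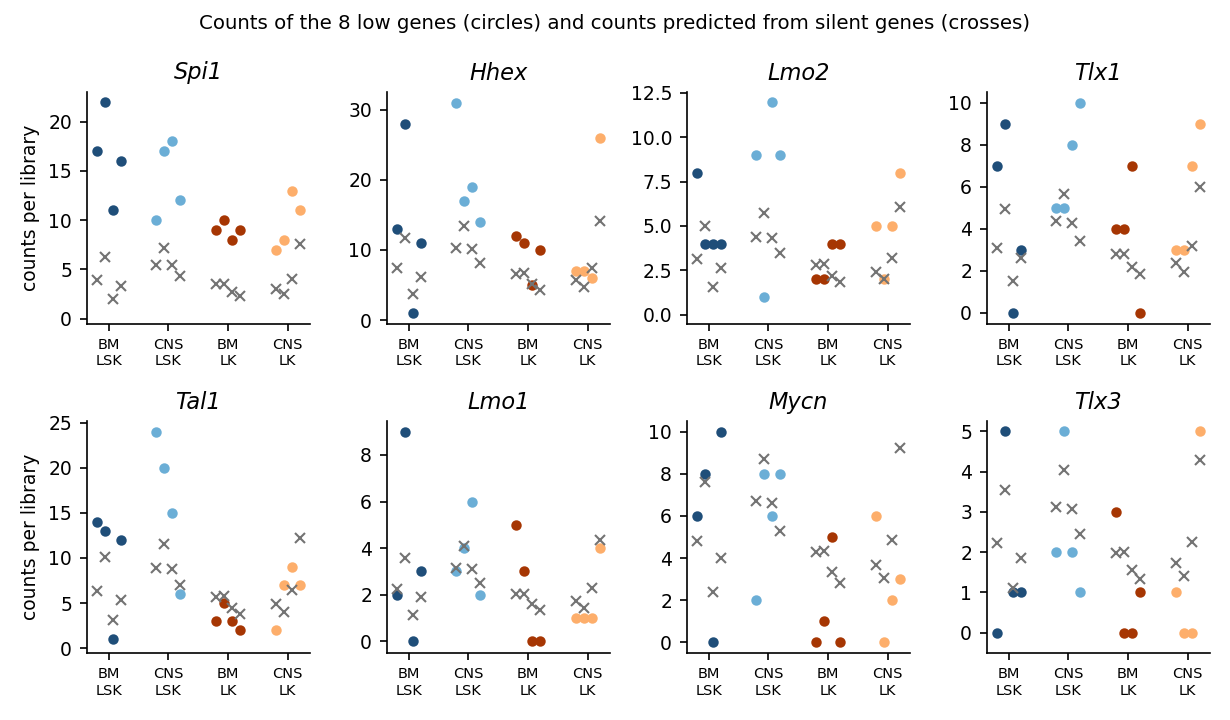
Counts per library of the 8 low genes (circles, coloured by group) and the counts predicted from the silent genes of the same library (crosses). Spi1 lies above its crosses in all groups. Hhex, Tlx1 and Lmo2 lie above theirs in most libraries, and Tal1 mainly in LSK libraries. Lmo1, Mycn and Tlx3 lie on both sides of theirs.

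Hhex, the fourth tested gene, had 13, 28, 1 and 11 counts in BM LSK 1 to 4, 31, 17, 19 and 14 in CNS LSK, 12, 11, 5 and 10 in BM LK and 7, 7, 6 and 26 in CNS LK. BM LSK 3 was again the lowest, and all groups overlapped. Its log2 difference between LPC types was 0.75 ± 0.38 (edgeR adjusted p 0.449) and between niches 0.48 ± 0.38 (0.771). With the background covariate these were −0.05 and −0.35, both of opposite sign.

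The LIM-only cofactors were at background in every group. Lmo2 had 1 to 12 counts per library and Lmo1 0 to 9. Lmo2 had group means of 0.124 ± 0.0614 (BM LK) to 0.344 ± 0.213 CPM (CNS LSK), and Lmo1 0.0681 ± 0.0440 (CNS LK) to 0.162 ± 0.0763 (CNS LSK; SD, n = 4). Between LPC types Lmo2 differed by 0.72 ± 0.52 (edgeR adjusted p 0.542) and Lmo1 by 0.95 ± 0.69 (0.546). Neither passed between niches, at 0.63 ± 0.52 for Lmo2 (edgeR adjusted p 0.632) and −0.0073 ± 0.50 for Lmo1 (1.00). Beside the background covariate Lmo2 differed by 0.62 between LPC types and 0.50 between niches, and Lmo1 by −0.13, of opposite sign, and −1.13 (edgeR adjusted p 1.00 for each). The sign of the Lmo1 niche difference also turned under other scalings (0.022 with median-of-ratios scaling). In the annotation the Lmo1, Lmo2 and Tlx1 genes each overlap a gene on the opposite strand without shared exon bases.

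The homeobox genes and Mycn were likewise near background. Tlx1 had 0 to 10 counts per library, Tlx3 0 to 5 and Mycn 0 to 10. Mycn totalled 24 counts in BM LSK, 24 in CNS LSK, 6 in BM LK and 11 in CNS LK, against predicted backgrounds of 18.8, 27.3, 14.8 and 20.8. Its difference between LPC types was 1.47 ± 0.63 (edgeR adjusted p 0.294) and fell to 0.88 ± 0.76 with the background covariate (1.00). Tlx1 differed by 0.37 ± 0.53 between LPC types (edgeR adjusted p 0.800) and 0.52 ± 0.53 between niches (0.708). Tlx3 differed by 0.75 ± 0.82 (edgeR adjusted p 0.712) and 0.50 ± 0.82 (0.852). All of these turned in sign with the background covariate, to −0.44 and −0.22 for Tlx1 and −0.069 and −0.68 for Tlx3 (edgeR adjusted p 1.00 for each).

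**Figure D5:**
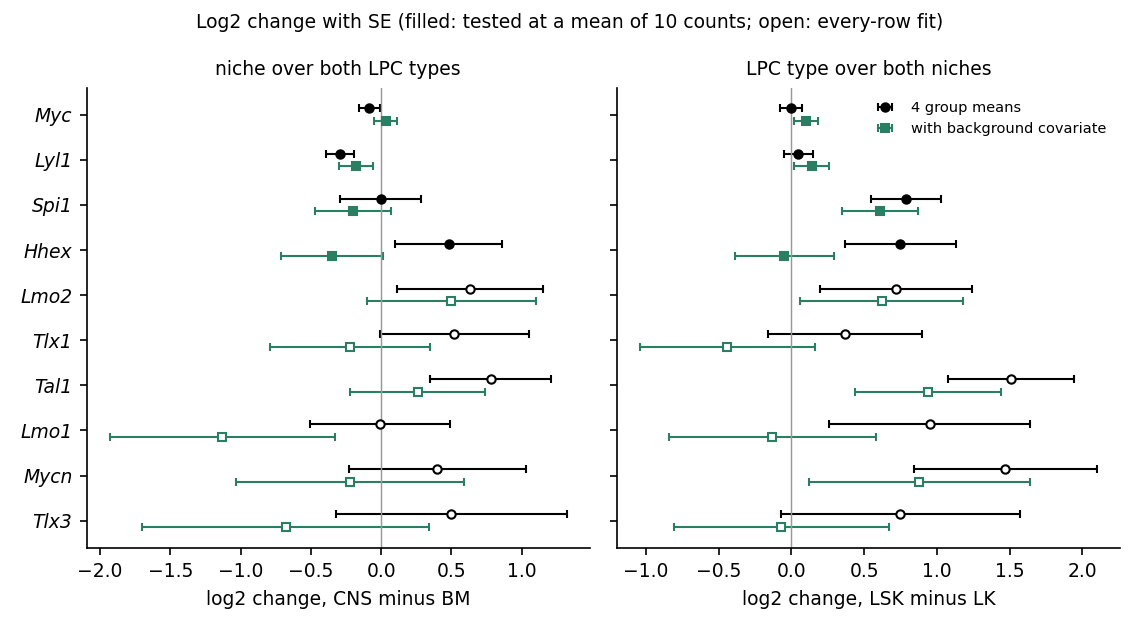
Log2 difference of each gene with its SE between niches (left, CNS minus BM) and between LPC types (right, LSK minus LK), from the fit of 4 group means (black) and with the silent-gene background as a covariate (green); open symbols are genes fitted among all rows with a count. For the 8 low genes the difference between LPC types is smaller or of opposite sign with the covariate, and the errors of the low genes are wide beside the differences themselves.

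Of the 15 other T-ALL transcription factor genes, 6 were tested and 0 passed in any comparison (edgeR; 0 at an unadjusted p under 0.05 between niches and 2 between LPC types). Myb, a factor of progenitor growth, and Bcl11b, of T-cell commitment, were abundant, at 292 ± 21.1 to 310 ± 6.02 and 288 ± 7.26 to 300 ± 32.3 CPM (SD, n = 4). Per length they had 34.0 and 35.9 CPM per kb, between Lyl1 and Myc. Tlx2, the relative of Tlx1 and Tlx3, had 2.15 ± 0.164 to 2.60 ± 0.371 CPM and was at 22.5 times background, and Mef2c had 0.441 to 1.03 CPM as group means, at 0.66 times. The other 11 genes lay between 0.538 and 1.77 times background.

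The rows whose pattern over the 16 libraries was most like that of each abundant member, among 11640 rows with a mean of at least 50 counts, were Tada3 (Pearson's r 0.844) and D8Ertd738e (0.830) for Lyl1 and Baz1a (0.915) and Ppp5c (0.892) for Myc, on log2(CPM + 1). The libraries share depth and background, and these values are descriptions.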

How the data were processed

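RNA from 16 sorted libraries (4 groups of 4) was made into libraries with a stranded SMARTer kit (low input, total RNA), per the labels. The deposited values were whole-number counts per Ensembl gene. The deposited table's own name calls them normalised, but the counts summed to 19.2e6 to 29.2e6 and the size factors ran from 0.804 to 1.30, so they were treated as raw counts. The build GRCm39 and DESeq2 are named in the submitters' processing notes without a role. The aligner, counter and use of strand or molecular identifiers are not given in the sources used here. Rows without a symbol (3333) held 41.8% of the counts and stayed in the fits.

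Rows with a mean of at least 10 counts (18878) were fitted with edgeR 4.0.16 (quasi-likelihood test, TMM scaling, 4 group means, two-sided) in R 4.3.3, with Benjamini-Hochberg adjustment over all tested rows and a threshold of 0.05. Of the 10 genes 4 passed this filter. The other 6 were tested among all 53366 rows with a count. The 7 comparisons were niche over both LPC types and within each, LPC type over both niches and within each, and their interaction.

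The BM and CNS libraries of one description stem deviated together from their group means (correlation over 0.1 in 8 of 8 stems, 0.172 to 0.393, on log2(CPM + 1)), so the stem paired them, and paired values are printed where they change a call. With a pseudocount of 0.1, 6 of 8 exceeded 0.1. CPM were scaled by TMM, except the silent-gene CPM given per group and the covariate made from it, which used library totals alone. Exon lengths came from GENCODE M21 (GRCm38), which is not the build of the counts, so member coordinates are not printed. Alternatives were DESeq2 1.42.0, limma 3.58.1 with voom, other scalings and filters, a covariate of the log2 silent-gene CPM, counts summed per stem and leaving out each library. On simulated data, in which 200 of 18878 genes were changed, the test of niche (both LPC types together) found 57% of the genes changed 1.5-fold and 74% of those changed 2-fold, but 0% and 1% in genes with a mean of 10 to 20 counts. The LPC type test recovered 55% and 78%, and 0% of either in such genes.

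One marker gene of a list is not reported here. The members and all gene lists were chosen with earlier results of these data known. All 10 members are named. From every other list, the genes named are those past the threshold in the fit without a block and the 4 with the highest mean count, and others are marked as chosen after their values were seen.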

Additional observations from a re-analysis of the deposited data

Results flagged for a closer look

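Within each group of 4 libraries, the lowest and the highest library were held against Dixon's 95% critical value, which compares the gap to the next library with the group's range. Of 40 groups examined, 4 exceeded it, where chance gives about 1 in 20, or 2.0. Each rests on few counts. Lmo2 had 0.43 CPM in BM LSK 1 (8 counts) against 0.14 to 0.18 in the other BM LSK libraries. Mycn had 0.24 CPM in BM LK 3 (5 counts) against 0 to 0.04. Spi1 had 0.56 CPM in CNS LK 3 (13 counts) against 0.34 to 0.37, and Lmo1 had 0.13 CPM in CNS LK 4 (4 counts) against 0.04 to 0.05. The cause of these values was not tested.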

How the results depend on the processing

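The low genes have few counts. At a mean of 10 to 20 counts the simulated test recovered almost no 2-fold change, and lower means were not simulated. A difference not called there is thus not shown to be absent. The simulation took its spread from these data, drew all libraries independently and did not vary depth, so the part of depth was not tested. Block with background covariate, block without a stem, and the fits of low genes among all rows were chosen after seeing the data.

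Among the 4 members with a mean of at least 10 counts, 0 were called in the 7 comparisons (edgeR) and under their alternatives, except by the replicate block on stems, which called 1 (Lyl1) between niches over both LPC types. Among all rows with a count, Lyl1 was called with the block and without any 1 of 4 libraries, and Tal1 was called between LPC types without BM LSK 3 (adjusted p 0.0105) or CNS LSK 4 (0.03). Over all rows, calls between niches (0; 1727 at an unadjusted p under 0.05) were 126 with the block, 28 with DESeq2 and 85 with every row tested. Within LSK they were 26 with the block and 10 with every row, and within LK 12 and 14. Calls between LPC types (45) became 162 with a replicate block on the number in the titles, 9 with the background covariate, 0 with counts summed per stem, 195 with DESeq2 and 290 with every row. Leaving out each library gave 15 (without CNS LK 3) to 138 (without CNS LSK 2). LSK and LK libraries of one number correlated over 0.1 in 4 of 8 cases, so the number was not taken to pair them. Among rows with a mean of at least 50 counts their correlations were higher, at 0.0617 (CNS 2) to 0.365 (BM 4). Those of the stems were then 0.364 (LSK 2) to 0.632 (LK 2). The descriptions of one number also share their leading figures, so a tie between these libraries remains possible. Within BM calls were 32 with DESeq2 and 48 with every row, 0 to 2 leaving out a library. Within the CNS they were 4 and 38, and 0 to 3.

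No reversed value passed a test. With the background covariate they were 0.031 for Myc, −0.35 for Hhex, −0.22 for Mycn, −0.22 for Tlx1 and −0.68 for Tlx3 between niches, and 0.10 for Myc, −0.05 for Hhex, −0.13 for Lmo1, −0.44 for Tlx1 and −0.069 for Tlx3 between LPC types. Lyl1 between LPC types was −0.0078 with every row (−0.0069 to 0.11 leaving out a library). Myc between LPC types was 0.018 with upper-quartile scaling, 0.022 without scaling, 0.016 on rows with a symbol and 0.021 at a mean of 50 counts (−0.031 to 0.042 leaving out a library). Spi1 between niches was 0.025 with upper-quartile scaling and 0.0028 without scaling (−0.10 to 0.065 leaving out a library). Lmo1 between niches was 0.027 with DESeq2, 0.022 with median-of-ratios scaling, 0.048 without scaling, 0.0087 on rows with a symbol and 0.26 with the replicate block (−0.28 to 0.44 leaving out a library). Leaving out a library, Mycn between niches ran from −0.018 to 1.38 and Tlx3 from −0.29 to 1.11. Of the other values, 335 counts and 638 single-gene values kept their side and direction. The cause was not tested.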
